A study of Mus musculus with 6 samples.

Results

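The loci described here are the small nucleolar RNA (snoRNA) and microRNA loci in sorted GFP+ cells of the embryonic ganglionic eminences. Rows were chosen by name and by measured level. A row of the FPKM table was taken when each of its gene names begins with Snora, Snord or Mir followed by a digit and when its mean over the 6 libraries is at least 1 FPKM (fragments scaled by the length of the transcript and by the mapped fragments of the library). The rule kept 125 of 29606 rows, namely 22 Snora rows, 15 Snord rows, 87 microRNA rows and 1 row for the host transcript Mir17hg with its microRNAs. In all, 605 rows carry only such names, of which 465 were at 0 in every library and 15 were above 0 but below the limit. The rule uses the measured mean, so the level itself is a description here, and a row at 0 in several libraries passed only through the libraries in which it was high. RNA came from GFP+ cells sorted by FACS from the ganglionic eminences of E13.5 mouse embryos, with strain label MF1. The 3 WT libraries carry the genotype label CCP1 Wt/Wt and the 3 CCP1 cKO libraries CCP1 lox/lox, and both groups carry the transgene Dlx5,6 CRE GFP, which drives Cre and GFP in GABAergic neurons of the forebrain. In CCP1 lox/lox animals, Cre removes exons 20 and 21 of Agtpbp1, the gene of the tubulin deglutamylase CCP1, and GFP+ cells of both genotypes were sorted alike. Total RNA was bound to silica columns (RNeasy mini kit), depleted of ribosomal RNA, and made into stranded paired-end libraries. How well these steps keep RNAs as short as those annotated here (64 to 238 nt) is not given. A value of 0 therefore does not show that an RNA was absent from the cells.

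SnoRNAs are short guide RNAs of the nucleolus, and most of them in mammals are cut out of introns of a host gene. Box C/D snoRNAs (Snord) direct ribose methylation, and box H/ACA snoRNAs (Snora) direct pseudouridylation of ribosomal RNA. MicroRNAs are cut by Drosha and Dgcr8 from a hairpin in a long primary transcript, cut again by Dicer1 and loaded on Argonaute proteins, after which their seed pairs with target mRNAs. The fragments of such a library are longer than a mature microRNA, so a microRNA row counts the hairpin or primary transcript, or other RNA of the same region, and not the mature form. In neurons, miR-9, miR-124 and miR-137 are known regulators of neurogenesis and differentiation.

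Some of the snoRNAs on which the results turn are shown first, because Snord104, among the shortest, was present in all libraries while Snord47, of similar length, was not. Their sequences are the GENCODE M21 transcripts (mm10). Capitals mark the C box motif TGATGA, searched on the transcript strand with its start in the first 20 bases, and the D box motif CTGA in the last 15 bases for Snord, and ACA in the last 6 bases for Snora.
Snord47: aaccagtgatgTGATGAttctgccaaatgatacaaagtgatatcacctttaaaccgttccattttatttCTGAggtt
Snord104: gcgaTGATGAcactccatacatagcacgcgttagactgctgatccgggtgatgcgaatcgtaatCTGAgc
Snora28: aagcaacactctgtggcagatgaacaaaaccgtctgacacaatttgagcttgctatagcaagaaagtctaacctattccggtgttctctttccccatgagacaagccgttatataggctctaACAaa
Snora31: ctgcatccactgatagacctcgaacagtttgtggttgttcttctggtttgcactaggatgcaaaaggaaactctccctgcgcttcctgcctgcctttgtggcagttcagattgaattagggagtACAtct
Snora75: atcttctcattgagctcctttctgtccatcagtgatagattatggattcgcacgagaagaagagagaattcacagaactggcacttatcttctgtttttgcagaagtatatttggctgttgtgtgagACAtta
Of 97 Snord transcripts of the annotation, 69 (71.1%) hold TGATGA and 91 (93.8%) hold CTGA in these windows, and 37 of 40 Snora transcripts (92.5%) hold ACA. Among the members, 12 of 15 Snord RNAs hold TGATGA, 15 hold CTGA, and 20 of 21 Snora RNAs hold ACA. Snord47 lies at chr1:161038082-161038158 on the plus strand inside Gas5, and Snord104 at chr11:106500993-106501062 on the plus strand. Snora28 lies at chr12:111540941-111541067 on the plus strand inside Eif5, Snora31 at chr14:75847905-75848034 on the plus strand inside Tpt1, and Snora75 at chr1:86351169-86351301 on the minus strand inside Ncl.

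The microRNAs below are shown because loci that give the same seed were measured very differently. RefSeq (GRCm38.p6) has mature sequences for 61 of the 75 microRNA names among the members, and capitals mark the seed (bases 2 to 8).
Mir17, miR-17-5p: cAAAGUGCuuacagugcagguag
Mir20a, miR-20a-5p: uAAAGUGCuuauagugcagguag
Mir93, miR-93-5p: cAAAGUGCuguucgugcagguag
Mir9-1, miR-9-5p: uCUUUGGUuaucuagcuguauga
Mir137, miR-137-3p: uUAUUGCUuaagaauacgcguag
Mir7-1, miR-7a-5p: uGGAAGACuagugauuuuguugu
Mir7-2, miR-7a-5p: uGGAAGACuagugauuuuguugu
Mir7b, miR-7b-5p: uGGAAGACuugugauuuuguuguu
Mir130a, miR-130a-3p: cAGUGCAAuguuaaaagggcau
Mir721, miR-721: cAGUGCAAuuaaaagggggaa
The first 3 share the seed AAAGUGC but come from the Mir17hg cluster on chromosome 14 (miR-17-5p at chr14:115043684-115043706) and from Mcm7 on chromosome 5 (miR-93-5p at chr5:138165574-138165596). The miR-7 forms share GGAAGAC and come from chromosomes 13, 7 and 17. The last pair shares AGUGCAA, with Mir130a on chromosome 2 and Mir721 inside Cux1 on chromosome 5. In all, 10 seeds occur in more than 1 microRNA name of the members.

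A row of the table covers a span of the genome and not the small RNA alone. The spans of the members ran from 86 to 522531 bp with a median of 42866 bp, while the RNAs annotated inside them ran from 64 to 238 nt with a median of 100 nt. Only 18 of 125 members had a span to themselves, and 107 shared theirs with at least 1 other row. For 52 members, the row of an annotated host gene was found in the span. For 94 members the named RNA is annotated inside the span. For 28 microRNA rows it is annotated elsewhere in the genome, and for 3 rows (2 Mir3473 rows and Mir5109) it is not in GENCODE M21. Mir3098 alone names 15 rows of 1 span on chromosome 2 (131127412 to 131604824). In the next sections, the length of a locus means the annotated length of its RNA wherever there is just 1, as for 88 members.

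The libraries differed in ways that touch these loci. The values of the members summed to 18066, 14966 and 2624 FPKM over WT 1 to 3. Over CCP1 cKO 1 to 3 they summed to 17315, 23795 and 10759 FPKM, so that WT 3 stood far below the rest. Single values made up much of these sums, such as Snord47 at 6416 FPKM in WT 1 and Mir1905 at 6777 FPKM in CCP1 cKO 2. Over the 69 members without zeros, the sums ran only from 1135 FPKM in WT 3 to 2080 FPKM in CCP1 cKO 3. WT 3 also had the lowest sum of 6 cortical excitatory markers (8.93 FPKM, against 13.6 to 37.2 FPKM in the others), and whether this bears on the small RNA values was not tested. Relative depth, read from ratios of values below 0.1 FPKM with CCP1 cKO 1 set to 1, ran from 0.725 in WT 1 to 1.14 in WT 3, and absolute depth is unknown. Agtpbp1 was at 20.01, 18.9 and 18.1 FPKM in WT and at 9.68, 10.1 and 9.56 FPKM in CCP1 cKO. The interneuron genes Dlx1, Dlx2 and Lhx6 had means of 148.3, 172.7 and 100.4 FPKM, whereas none of 12 endothelial, pericyte and microglial markers reached a mean of 1 FPKM. The 5 measured radial glia markers summed to 366.5 to 428.2 FPKM per library, and the highest had a mean of 173.3 FPKM. The embryonic globin Hbb-y, a red blood cell marker, had 4.51 to 21.6 FPKM. In sorted cells measured in bulk, fewer cells of a type and less RNA per cell cannot be told apart.

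Values of exactly 0 were common among the snoRNA and microRNA loci. Of 750 values, 221 (29.5%) were 0, against 0.178% of the values at the 13075 other loci above the same limit. At least 1 value of 0 was found at 56 of 125 members (44.8%), against 93 of the other loci (0.711%). Short loci of other kinds were intermediate, with 9.52% of values at 0 over 112 other rows whose span is under 300 bp. Among 11 other small RNA loci (Scarna, Rnu, Rpph1, Rmrp, Terc and Mirlet7 names), 6.06% of values were 0, and these came from the spliceosomal RNA row Rnu11 and from Scarna3a.

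The zeros were spread over all libraries. WT libraries had 40, 36 and 42 members at 0, and CCP1 cKO libraries had 32, 34 and 37. The mean was 39.3 ± 3.06 in WT and 34.3 ± 2.52 in CCP1 cKO (SD, n = 3), a difference of -5 members (two-sided exact permutation test, p = 0.2, where 3 against 3 allow no p below 0.1). The ranges overlapped in WT 2 and CCP1 cKO 3. MicroRNA rows at 0 numbered 24, 23 and 24 in WT and 17, 20 and 21 in CCP1 cKO, which did not overlap (exact permutation p = 0.1, the smallest possible). The Snora rows at 0 had the same mean in both genotypes, 8 of 22 (exact permutation p = 1), and the Snord rows 7.67 and 7 of 15 (exact permutation p = 0.7). These counts depend on the choice of rows. A row above 0 in 1 library passed the limit through that library alone and is at 0 throughout the other genotype. Such rows numbered 10 for WT and 20 for CCP1 cKO, so these p-values describe the chosen rows and cannot show a difference of genotype. The other loci tested had 33, 27 and 30 rows at 0 in WT and 23, 15 and 12 in CCP1 cKO, so that fewer zeros in CCP1 cKO were seen outside the small RNA loci too.

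**Figure D1:**
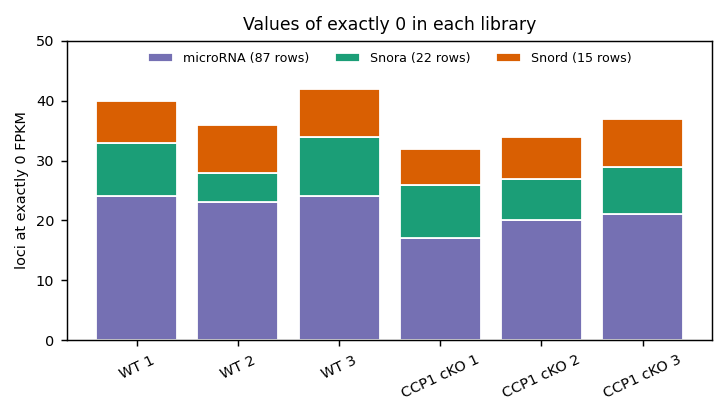
Number of snoRNA and microRNA loci at exactly 0 FPKM in each library (bars start at 0 and are stacked by class). The bars reach 40, 36 and 42 for WT and 32, 34 and 37 for CCP1 cKO, and most of each bar is microRNA rows.

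A member was usually at 0 almost everywhere or nowhere. Of the 125 members, 69 were above 0 in all 6 libraries and 30 were above 0 in a single library. Of those 30, 10 were above 0 in a WT library (4, 4 and 2 in WT 1 to 3) and 20 in a CCP1 cKO library (7, 7 and 6). No member was above 0 in all libraries of 1 genotype and at 0 in all of the other. The closest was Snora75, a guide RNA from an intron of the nucleolin gene Ncl, at 50.3, 67.8 and 0 FPKM in WT and at 0 in the 3 CCP1 cKO libraries. A few members followed the replicate number instead. Snord55, Mir25 and Snora31 were above 0 only in WT 1 and CCP1 cKO 1, and Snora28 was at 0 only in those libraries. No member showed such a pattern for replicate 2 or replicate 3.

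The classes differed in how often their rows were above 0 at all. Whether the libraries recovered RNAs of each length alike was not tested. Among rows with 1 annotated RNA, 22 of 26 Snora rows (84.6%) were above 0 in some library, against 15 of 46 Snord rows (32.6%) and 58 of 375 microRNA rows (15.5%). Snora RNAs are also the longest by median, with 132.5 nt over the members against 85 nt for Snord and 92 nt for microRNAs. The members ran from 127 to 184 nt for Snora, from 70 to 238 nt for Snord and from 64 to 141 nt for microRNAs. The RNA of 141 nt is Mir1949, which the annotation types as a snoRNA. Within Snord, 6 of 22 rows up to 80 nt, 5 of 16 rows over 80 and up to 100 nt and 1 of 5 rows over 100 and up to 120 nt were above 0, while the 3 rows over 140 nt (Snord15a, Snord15b and Snord17) were above 0 in every library. Within microRNAs the share was 13 of 151 rows (8.61%) up to 80 nt, 29 of 165 (17.6%) over 80 and up to 100 nt, 13 of 47 (27.7%) over 100 and up to 120 nt and 2 of 11 (18.2%) over 120 and up to 140 nt.

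Where a member had zeros, its lowest value above 0 was high, and it was higher the shorter the RNA. The median of that lowest value was 3806 FPKM for 7 members up to 80 nt. It was 567.2 FPKM for 20 members over 80 and up to 100 nt, and 49.3 FPKM for 10 over 100 and up to 120 nt. For 16 members over 120 and up to 140 nt it was 30.8 FPKM, and for 2 longer members 6.76 FPKM. Across these 55 members Spearman's rho was -0.88 between annotated length and lowest value above 0, and it was -0.89 across the 30 members above 0 in 1 library. These points share 6 libraries, and FPKM itself divides by length, so the values describe this table and are not a test. The 33 members of known length that were above 0 in every library did not show this fall (rho 0.39), and microRNA rows such as Mir130a (64 nt) had lowest values near 1 FPKM. Between the span of the row and its mean FPKM, rho was -0.32 over the 125 members. Among the 27 members with a zero and an RNA of up to 100 nt, no value lay between 0 and 22.9 FPKM.

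**Figure D2:**
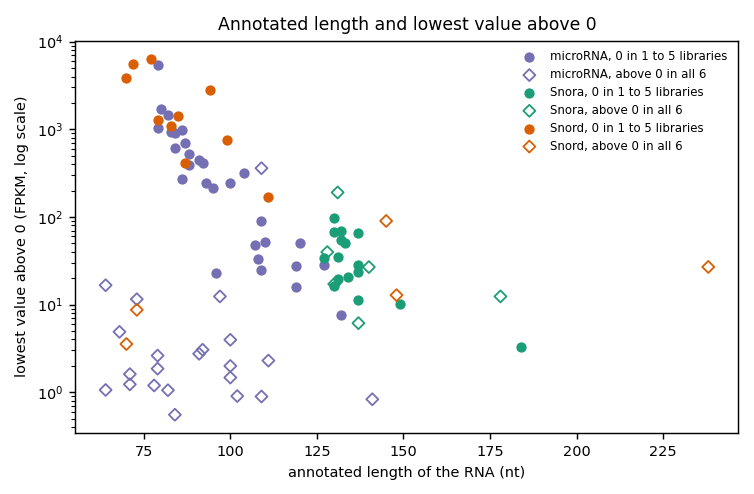
Annotated length of the RNA (nt) against the lowest value above 0 (FPKM, log scale) for members with 1 annotated RNA, with filled circles for members at 0 in 1 to 5 libraries and open diamonds for members above 0 in all 6. The filled circles fall from medians of 3806 FPKM up to 80 nt to 6.76 FPKM over 140 nt, and most open diamonds of short RNAs lie below 10 FPKM.

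The highest means of the members came from such values. Mir1905, a microRNA inside the span of the row of Mex3a, had 0, 4925 and 0 FPKM in WT and 1689, 6777 and 1458 FPKM in CCP1 cKO. The genotypes overlapped, because WT 2 exceeded 2 of the CCP1 cKO libraries. Snord16a, from an intron of the ribosomal protein gene Rpl4, had 0, 759.2 and 791.6 FPKM in WT and 1774, 2810 and 1179 FPKM in CCP1 cKO. It was the only member whose genotypes did not overlap (exact permutation p = 0.1, the smallest possible), against 9.8% of all loci tested (0.8% of the members). A row with a 0 in both genotypes cannot meet this rule, and the 30 members above 0 in 1 library are all such rows. The low share of the members is thus partly fixed by their zeros. The row that holds Rpl4 had 340.4 to 399.7 FPKM in all libraries, so the order of Snord16a was not seen in its host.

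Of the other members among the 10 highest, most were at 0 in several libraries. Snord47, one of the guides inside the noncoding host Gas5, was at 6416 FPKM in WT 1 and at 0 in the others. Snord49b had its only value in CCP1 cKO 1, with 5631 FPKM, and Mir1895 in CCP1 cKO 2, with 5483 FPKM. Snord82, a second guide from Ncl, was at 3806 FPKM in WT 1 alone. Mir5109 had 1703, 2501 and 0 FPKM in WT, and among the CCP1 cKO libraries 798 FPKM in the first and 0 in the others. Snord55 was at 1266 FPKM in WT 1, at 1857 FPKM in CCP1 cKO 1 and at 0 elsewhere. Mir344, inside the noncoding row A230057D06Rik, had 0, 1784 and 0 FPKM in WT and 214.2, 404.9 and 697 FPKM in CCP1 cKO. Mir703 was the only one of the 10 above 0 in every library, with 828.6, 593.6 and 359.8 FPKM in WT and 606, 653 and 654.1 FPKM in CCP1 cKO. Its groups overlapped, and the WT libraries alone spanned the whole range.

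**Figure D3:**
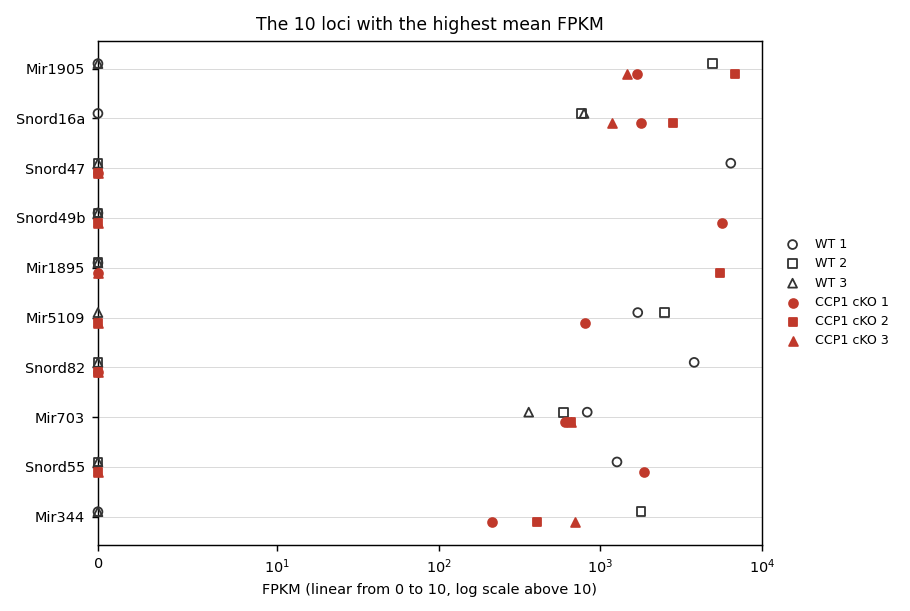
FPKM in each library for the 10 members with the highest mean (linear from 0 to 10, log scale above), with open dark symbols for WT and filled red symbols for CCP1 cKO. Snord47, Snord49b, Mir1895 and Snord82 have 1 library above 0 each, and Mir703 has all 6 between 359.8 and 828.6 FPKM.

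Within the Snora class, Snora68 was the highest row and was above 0 throughout. It had 241.1, 350.6 and 190.3 FPKM in WT and 490.9, 310.3 and 532.8 FPKM in CCP1 cKO, with means of 260.6 ± 47.3 and 444.7 ± 68.3 (SEM, n = 3). CCP1 cKO 2 lay below WT 2, so the groups overlapped. Of the Snora rows, 6 were above 0 in every library, namely Snora68, Snora7a (Rpl32), Snora78 (Snhg9), Snora52 (Rplp2), Snora81 (Eif4a2) and 1 of 2 rows named Snora30. Snora7a ran from 26.8 FPKM in WT 3 to 166.8 FPKM in WT 1, a ratio of 6.22 within 1 genotype. Snora52 ran from 6.14 FPKM in WT 3 to 52.8 FPKM in WT 2, a ratio of 8.6. Snora81, of 178 nt, had 12.4, 22.4 and 19.98 FPKM in WT and 22.2, 19.5 and 36.0 FPKM in CCP1 cKO. The 2 rows named Snora30 share a span, yet one was above 0 in all libraries (17.2 to 31.3 FPKM) and the other in WT 2, CCP1 cKO 2 and CCP1 cKO 3 (98.1 to 129.8 FPKM). Snora28 had 0, 34.9 and 33.6 FPKM in WT and 0, 107.4 and 103.3 FPKM in CCP1 cKO.

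Within the Snord class, levels and steadiness went different ways. The long RNAs were present in every library, with Snord15b at 272.6, 169.1 and 104.9 FPKM in WT and 126.6, 89.9 and 144.2 FPKM in CCP1 cKO. Its sister in the same host Rps3, Snord15a, had 46.4, 12.8 and 22.2 FPKM in WT and 29.9, 63.1 and 40.4 FPKM in CCP1 cKO, so the 2 guides of 1 host did not keep a fixed ratio. Snord17, of 238 nt, had 29.0, 33.8 and 37.0 FPKM in WT and 26.9, 121 and 71.6 FPKM in CCP1 cKO. The short exceptions were Snord85 (73 nt) and Snord104 (70 nt), the second of which is printed above. Snord85 had 8.92, 10.7 and 8.71 FPKM in WT and 10.4, 10.6 and 9.38 FPKM in CCP1 cKO, a ratio of highest to lowest of 1.23. Snord104 had 4.75, 3.55 and 4.35 FPKM in WT and 5.51, 4.5 and 4.69 FPKM in CCP1 cKO. Their rows span 119408 and 112663 bp. Snord47, with nearly the same length as Snord85, was at 0 in 5 libraries.

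The levels of small RNA rows lay on both sides of those of their host genes. For 52 members, the row of an annotated host was found in the same span, for 47 host rows in all, of which 15 are ribosomal protein genes. The hosts had a median of 71.0 FPKM and were above 0 in every library, except Snhg9. The mean of the small RNA exceeded that of its host in 22 of 52 cases. Ratios to the host ran from 0.0127 for Snora62 in Rpsa to 101.0 for Mir344 in A230057D06Rik. Ncl, at 13.0 to 17.8 FPKM, held Snord82 and Snora75, above 0 in 1 and 2 libraries. Gas5 was at 66.5 to 79.1 FPKM in all libraries while Snord47 was at 0 in 5 of them. Tpt1, the host of Snora31, had 620.1 and 594.5 FPKM in the replicate 1 libraries and 550.1 to 562.5 FPKM in the others. Eif5, the host of Snora28, had 96.9 and 98.4 FPKM in the replicate 1 libraries and 84.2 to 90.6 FPKM in the others. Both hosts were thus highest where Snora31 was above 0 and Snora28 was at 0. Snhg9, a short noncoding host, had 14.7, 8.2 and 8.06 FPKM in WT and 13.7, 0 and 2.53 FPKM in CCP1 cKO, while Snora78 within it had 39.7 to 99.6 FPKM in WT and 48.1 to 121.9 FPKM in CCP1 cKO. By limma, 0 of the 47 host rows passed an adjusted p of 0.05, against 0.0909% of all loci tested. An unadjusted p under 0.05 was found for 1 host row (Itpk1), against 4.62% of all loci tested.

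**Figure D4:**
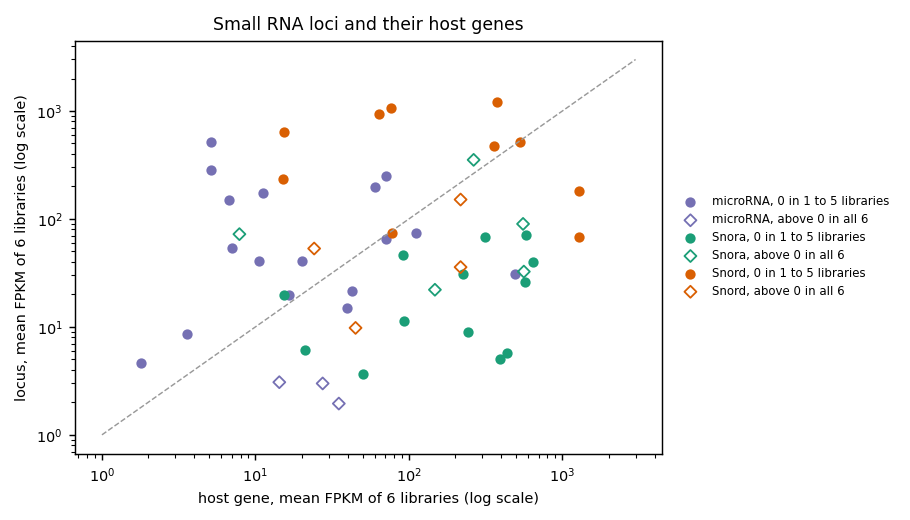
Mean FPKM of 52 small RNA loci against the mean FPKM of the host gene row in the same span (both log scales, 6 libraries), with the dashed line at equal levels. Points lie on both sides of the line, with 22 of 52 above it.

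The microRNA rows alone in a long span were low and present throughout. All 13 microRNA rows that were alone in a span of over 1000 bp, the Mir17hg row among them, were above 0 in every library, with means of 1.25 to 15.2 FPKM and a ratio of highest to lowest library of 1.29 to 3.87. The 30 rows whose RNA is annotated elsewhere or not at all and that share a span were above 0 throughout too, with ratios of 1.76 to 10.3 (median 3.16). The row of Mir669a-3 and Mir669k, with its RNAs annotated inside a shared span, had 0.123 to 0.284 FPKM in 5 libraries and 12.7 FPKM in CCP1 cKO 1, a ratio of 103.6. The 5 members alone in a span under 300 bp (Mir5109, Mir684-2, Snora15, Mir1983 and Mir760) each had a 0, and their means ran from 4.56 to 833.6 FPKM. Mir137 had 14.98, 12.4 and 11.5 FPKM in WT and 14.6, 14.9 and 14.3 FPKM in CCP1 cKO. Its CCP1 cKO libraries lay close together and inside the range of WT. Mir124a-3 was the steadiest member, with 5.24, 5.0 and 4.88 FPKM in WT and 5.22, 5.51 and 5.79 FPKM in CCP1 cKO, a ratio of 1.19. The row of Mir3093 and Mir9-1 had 53.6, 90.2 and 70.7 FPKM in WT and 48.3, 73.4 and 76.2 FPKM in CCP1 cKO, the second highest level of the microRNA rows present throughout. The Mir17hg row, an oncogenic cluster that drives proliferation, had 6.13, 7.7 and 6.58 FPKM in WT and 6.93, 7.88 and 7.85 FPKM in CCP1 cKO. Intervals for the difference were narrow on the log2(FPKM + 1) scale, from -0.07 to 0.28 for Mir124a-3, from -0.06 to 0.40 for Mir137 and from -0.09 to 0.37 for Mir17hg (limma, 95% confidence).

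**Figure D5:**
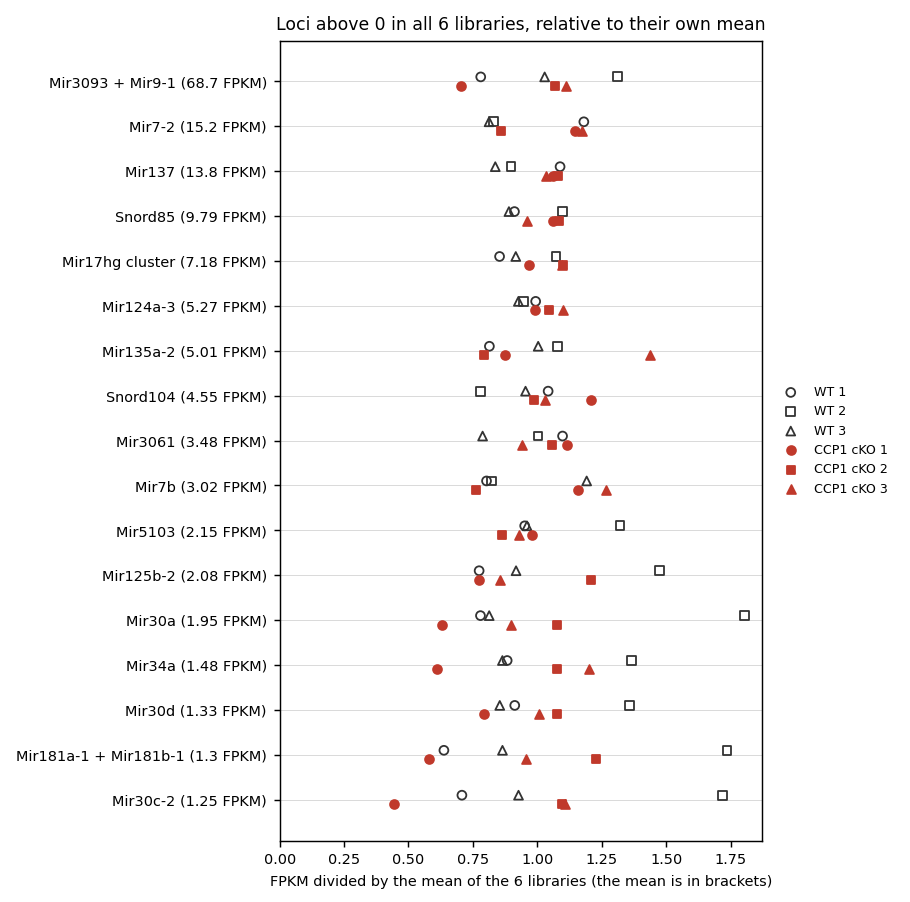
FPKM of each library divided by the mean of the 6 libraries for the 13 microRNA rows alone in their span and for Mir3093 with Mir9-1, Mir124a-3, Snord85 and Snord104 (mean FPKM in brackets, open symbols for WT, filled for CCP1 cKO). Mir124a-3 and Snord85 stay closest to 1, and Mir30a is lowest in CCP1 cKO 1 and highest in WT 2.

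Rows of loci that give the same seed were above 0 in different numbers of libraries, but these rows also differ in kind. The Mir17hg, Mir7-2 and Mir7b rows are alone in spans of 9285, 7531 and 4441 bp. The Mir130a row has a span of 9698 bp, which it shares with the row of Ypel4. The Mir93, Mir7-1 and Mir721 rows share their span with the row of a host gene. Which RNA each row counts was not tested, so the values do not compare the microRNAs themselves. The Mir17hg row, with miR-17-5p and miR-20a-5p, was above 0 in all libraries, while Mir93 had its only value, 393.6 FPKM, in CCP1 cKO 1. Mir25, from the same host Mcm7 as Mir93, was at 881.2 FPKM in WT 1 and at 613.3 FPKM in the first CCP1 cKO library, and Mir106b, the other microRNA of that host, was at 0 in all libraries. Mcm7 itself, a helicase subunit of DNA replication, was level at 66.8 to 75.1 FPKM. The 3 loci of the seed GGAAGAC differed likewise. Mir7-2 had 12.4 to 18.0 FPKM and Mir7b 2.3 to 3.82 FPKM over the 6 libraries, whereas Mir7-1, inside Hnrnpk, was at 0 in WT 1, WT 2 and CCP1 cKO 3 and at 33.2, 56.5 and 97.6 FPKM in the other libraries. Of the seed AGUGCAA, Mir130a had 1.06 to 2.58 FPKM, and Mir721 had 658.4 FPKM in WT 2, 521.2 FPKM in CCP1 cKO 3 and 0 elsewhere. The cluster of Mir23a, Mir27a and Mir24-2 gave 704.7 FPKM for Mir27a in CCP1 cKO 3 alone and 47.9 FPKM for Mir24-2 in WT 3 alone. The 3 members of the Mir181 family, in contrast, had means of 1.3, 2.36 and 3.12 FPKM and no zeros, while a further Mir181b-2 row below the limit had a mean of 0.24 FPKM and was at 0 in WT 1.

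Among the members above 0 in every library, the libraries numbered 1, and those numbered 2, often lay together across the genotypes. In 26 of these 69 rows (37.7%), WT 1 and CCP1 cKO 1 were the 2 lowest libraries, against 10.2% of 12982 other loci above 0 in every library. In 21 rows (30.4%), WT 2 and CCP1 cKO 2 were the 2 highest, against 10.2% of the other loci. Of these 21 rows, 12 are named for a microRNA annotated elsewhere or not at all. Most of those 12 are Mir3098 rows of 1 span, which are not independent. For replicate 3 the counts were 4 and 2. Rows with the RNA annotated inside the span (13 of 39) and rows named for a microRNA annotated elsewhere or not at all (13 of 30) both took part in the first pattern, and 9 of the latter are Mir3098 rows of 1 span, which are not independent. Mir30a, for example, had 1.52, 3.51 and 1.58 FPKM in WT and 1.23, 2.09 and 1.75 FPKM in CCP1 cKO. The rows of Mir181a-1 with Mir181b-1, of Mir181c with Mir181d, of Mir125b-2, Mir130a and of Mir3093 with Mir9-1 also had both replicate 1 libraries lowest. The labels give no meaning to the number beyond a replicate, WT 1 had the lowest relative depth but CCP1 cKO 1 did not, and the part of depth was not tested.

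The 28 rows named for microRNAs annotated elsewhere were Mir3098, Mir467c, Mir3470a, Mir3470b, Mir1191, Mir3471-1 and Mir466f-3 rows, in 7 spans. All 28 were above 0 in every library, at means of 1.04 to 11.3 FPKM. Their values say nothing of those microRNAs, since the annotated hairpin lies outside the span. The Mir3098 rows had medians over the 15 rows of 2.34, 6.34 and 4.93 FPKM in WT and 2.39, 3.91 and 4.47 FPKM in CCP1 cKO. Mir669a-3 with Mir669k, a row of the Sfmbt2 cluster, was the least even of the members without zeros, with 12.7 FPKM in CCP1 cKO 1 and 0.123 to 0.284 FPKM in the other 5 libraries.

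No snoRNA or microRNA locus passed the test between the genotypes. By limma on log2(FPKM + 1) with Benjamini-Hochberg adjustment over all 13200 loci, 0 of 125 members passed an adjusted p of 0.05, where 12 loci (0.0909%) passed in all, and the smallest adjusted p of a member was 0.976. At an unadjusted p under 0.05 stood 2 members (1.6%), against 610 loci (4.62%). By limma, the 30 members above 0 in 1 library all had an unadjusted p of 0.233 to 0.236. Their zeros set these values, so the share of the members is not to be read against that of all loci. The median log2 fold change (CCP1 cKO over WT) was 0.09 over the members and -0.02 over all loci tested. Over the 69 members above 0 in every library it was -0.04, with single values from -0.52 to 1.21. Standard errors were wide, with a median of 0.485 over the members against 0.102 over all loci tested and at most 3.81 on the log2 scale.

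The members with the smallest p were Snora68 (log2 fold change 0.78, standard error 0.279, adjusted p = 0.976) and Snora75, whose fitted value of -3.93 is set by the zeros and gives no bound. Next came Mir1905, 1 Mir3098 row (0.28, standard error 0.132), 1 Mir467c row (0.67, standard error 0.336), Snord17 (0.88, standard error 0.485), Mir344 and Snord16a, all with the same limma adjusted p. Leaving out 1 library made calls of members with zeros only. Without WT 2, Mir1905 and Mir344 passed (limma, adjusted p = 0.00552 and 0.00463), where the WT libraries left were both at 0. Without WT 3, Snora75 passed (limma, adjusted p = 0.000172), where all CCP1 cKO libraries were at 0 and WT 3 was the only WT library at 0. Snora75 had also met the limit of level through WT alone. These calls follow from the library left out and cannot show a difference of genotype. No other library left out alone gave a call, and with both replicate 1 libraries left out Snora28 passed (limma, adjusted p = 0.0131, with 2 libraries per group).

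Summed over the members, FPKM came to 11885 ± 4716 in WT and 17290 ± 3763 in CCP1 cKO (SEM, n = 3), a difference of 5404 FPKM (two-sided exact permutation test, p = 0.5). This was 0.586% to 3.33% of all FPKM in a WT library and 2.16% to 4.56% in a CCP1 cKO library (exact permutation p = 0.4). Without WT 3 the difference was 773.5 FPKM. The sums use the values by which the rows were chosen, so the p-values here describe the chosen rows and cannot show a difference of genotype. The microRNA rows moved most between libraries, from 1049 FPKM in WT 3 to 16257 FPKM in CCP1 cKO 2, and the Snora rows least, from 429 FPKM in WT 3 to 1540 FPKM in WT 2. Snord rows ran from 1139 FPKM in WT 3 to 11851 FPKM in WT 1. The genotypes overlapped in each class (exact permutation p = 0.7 for Snora, 0.8 for Snord and 0.4 for microRNA rows). The 69 members without zeros summed to 2022, 1781 and 1135 FPKM in WT and to 1726, 1857 and 2080 FPKM in CCP1 cKO (exact permutation p = 0.5). Of the 100 rows with the highest mean in the whole table, 8 were members.

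The proteins that make and use these RNAs did not pass the test either. Of the core proteins of box C/D and H/ACA particles, 7 were measured and 0 passed (limma, adjusted p), with log2 fold changes of -0.17 to 0.13. Snu13, which binds the kink-turn of box C/D RNAs, was at 83.1 FPKM (WT) and 83.8 FPKM (CCP1 cKO), and the scaffold protein Nop56 had 59.5 and 58.8 FPKM. None of 12 measured assembly factors of snoRNA particles passed, such as the helicase Ruvbl2 (48.7 and 49.6 FPKM). In microRNA processing, 0 of 13 tested genes passed, with a median log2 fold change of -0.06. Ddx17, a helicase of the Drosha complex, was at 240.5 FPKM (WT) and 222.6 FPKM (CCP1 cKO). Of the Argonaute and silencing genes, 0 of 8 tested passed, with Ago1 at 51.5 and 50.8 FPKM. In the lists of known hosts, 0 of 41 tested snoRNA hosts and 0 of 27 tested microRNA hosts passed, with medians of 0.02 and -0.04. At an unadjusted p under 0.05 stood 1 of the snoRNA hosts and 0 genes of the other lists, against 4.62% of all loci tested.

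Around the limit of 1 FPKM, the members just inside were Mir466f-3 (1.04 FPKM), Mir3470a (1.07 FPKM) and Mir423 (1.2 FPKM), and the rows just outside were Mir425 (0.974 FPKM), a Mir3470b row (0.844 FPKM) and Mir484 (0.745 FPKM), all above 0 in every library. The 10 rows of the imprinted Snord116 family, box C/D snoRNAs of neurons, were at 0 in all 6 libraries. Such zeros do not show that the RNAs were absent from the cells. Of the 11 other small RNA loci that the names leave out, Rpph1, the RNA of RNase P, had a mean of 12697 FPKM and Rmrp, the RNA of RNase MRP, one of 10184 FPKM, and neither had a zero. The means of the rest ran from 1.65 FPKM for Mirlet7i to 220.7 FPKM for Rnu11.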

How the data were processed

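The 6 libraries of sorted GFP+ cells, 3 WT and 3 CCP1 cKO, were grouped by the labels. The authors aligned paired-end reads to mm10 with Bowtie2 in the Tuxedo workflow and deposited FPKM per locus and library. The sources used here do not give versions or the annotation, and the sequencer is named differently by the methods and the design text. FPKM divides by length, so that a fragment weighs more at a short RNA. Tables of the authors' own comparisons and group means were not used. Starts were counted from 1, and RNAs were looked up in GENCODE M21 and RefSeq (GRCm38.p6).

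Genotypes were compared by limma 3.58.1 (R 4.3.3, with trend) on log2(FPKM + 1) at every locus averaging 1 FPKM or more, adjusted over 13200 loci, after a test on simulated data. Zeros and sums were compared by exact permutation tests (SciPy 1.17.1). The study describes its sorted RNA samples as embryos of different mothers, and the labels do not tie a library to a litter. The members and lists were chosen with earlier results of these data known. Loci were named by rule: the 10 highest means, the 8 smallest p, the highest of each class, 3 on each side of the limit, microRNA rows without zeros, rows of known neural families, and their hosts. Others were named after their values were seen, as examples of a count. Of the list genes, those sharing a row with other genes were left out. The alternatives were other pseudocounts, filters and scalings, a fit without trend, a block for the replicate number, left-out libraries and subsets of rows. Some host genes and snoRNA sequences are not reported here.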

Additional observations from a re-analysis of the deposited data

How the results depend on the processing

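The direction of the difference in zeros and in summed FPKM was kept under each alternative, with differences of -6.67 to -3.67 members and of 773.5 to 8670 FPKM when 1 library was left out. Each alternative uses rows chosen by their level in these libraries, so the kept direction cannot show a difference of genotype. The count of members past an adjusted p of 0.05 was 0 under the other pseudocounts, filters and scalings, and it was 1 without both replicate 1 libraries and 0 to 2 with 1 library left out. Members at an unadjusted p under 0.05 numbered 1 of 69 among loci above 0 in every library (617 of all 13051 loci). They numbered 12 of 125 without both replicate 1 libraries (764 of all 13200 loci) and 2 to 10 with 1 library left out (377 to 907 of all loci). Snora68 kept its direction in 17 alternatives, at adjusted p of 0.647 to 1 (limma). The median log2 fold change of members, 0.09, was 0.10 with pseudocounts of 0.1 and 0.5, 0.21 with a mean of at least 5 FPKM, -0.04 among loci above 0 in every library, 0 without both replicate 1 libraries and 0 to 0.14 with 1 library left out (0 without WT 1, WT 3 or CCP1 cKO 2, 0.0088 without CCP1 cKO 3 and 0.14 without WT 2). Over all loci, the calls fell from 12 to 2 among loci above 0 in every library and to 1 among named loci, and ran from 4 to 16 with 1 library left out. Restricting to rows whose RNA is annotated inside the span, chosen after seeing the data, gave a difference of -5.33 members at 0 (exact permutation p = 0.2). The causes of these changes were not tested.

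With the replicate number as a block, 0 members passed, while 10 of 125 members and 895 of all 13200 loci were at an unadjusted p under 0.05. The correlations of same-numbered libraries were 0.32, 0.11 and 0.04 over all loci and 0.23, -0.04 and -0.06 over the members, so the numbers were not taken as pairs. CCP1 cKO 2 correlated best with WT 3, and CCP1 cKO 3 with WT 2. With 3 libraries per group, zeros at short loci limit what can be detected.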
